A study of Mus musculus with 24 samples.

Results

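The transcription factors SREBP, ChREBP and LXR and the proteins that hold or release them were followed in livers of fed and fasted mice. They were read as 10 genes chosen by name: Srebf1, Srebf2, Scap, Insig1, Insig2, Mlxipl, Mlx, Nr1h3, Nr1h2 and Usf1. These are 10 of the 37325 gene symbols on the array. All 10 had a probe with enough signal to be tested, as did 21495 genes in all. A gene was represented by its brightest probe over all arrays, and its other probes are given for comparison. Srebf1, Scap and Insig1 had a single probe, and the other 7 genes had more than 1, so that 20 probes were read and 19 of them passed the filter on low signal.

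The study addressed the part of insulin signalling through p110α of hepatocytes in what the liver expresses when food is eaten or withheld. Liver RNA of 24 male mice on a C57BL/6J background, aged 12 weeks, was hybridised to 1-colour Agilent arrays, with 1 mouse per array and 6 mice in each of 4 groups. All mice carried floxed alleles of Pik3ca, the gene of p110α. Those labelled LKO also carried Cre recombinase driven by the albumin promoter, a promoter active in hepatocytes, and those labelled LWT were littermates without Cre. Fed mice ate ad libitum and fasted ones had no food for 24 h, and every mouse was killed at ZT16, that is 16 h after lights on. The groups are therefore LWT_Fed, LWT_Fasted, LKO_Fed and LKO_Fasted. In RNA of whole liver, fewer cells of a type and less RNA per cell cannot be told apart.

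SREBP proteins are made as precursors in the membrane of the endoplasmic reticulum. Scap escorts them to the Golgi apparatus, where proteases release the active factor, and Insig1 and Insig2 retain the Scap complex in the endoplasmic reticulum when sterols are abundant. SREBP-1c, from Srebf1, drives fatty acid synthesis under insulin, SREBP-2, from Srebf2, drives cholesterol synthesis and uptake, ChREBP, from Mlxipl, binds DNA with Mlx and responds to sugar, and the oxysterol receptors LXRα and LXRβ, from Nr1h3 and Nr1h2, act on sterol export and on Srebf1 itself. Activity of all these factors is set largely at the protein, which these arrays do not measure.

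The share of spots well above background ran from 54.7% to 63.0% over the arrays. The 8 hepatocyte markers examined, among them Alb, the gene of albumin, and Ttr, that of transthyretin, were all detected, and their summed signal lay between 20.61 and 20.87 on the log2 scale over all 24 arrays. The probe for Pik3ca did not read lower in LKO livers: it differed by 0.58 between LKO and LWT in the fed state (SE 0.114, limma adjusted p = 0.0015) and by -0.02 in the fasted state (SE 0.121, adjusted p = 0.931). Whether that probe lies in the deleted exons was not determined here, so it does not check the labels, and LKO below means the arrays labelled LKO. LKO_Fasted replicates 1 and 2 stood apart from the rest of their group on the second principal component, at 35.06 and 31.25 against 1.40 to 2.92 for the other 4. LKO_Fasted replicate 4 deviated most from the rest of its group, by 0.360 log2 units against 0.183 to 0.288 for the other 23 arrays, and stood apart on the fourth component. It and LWT_Fed replicate 3 carried the lowest weights in the fit, 0.356 and 0.317. The number of members called was the same in every comparison without LKO_Fasted replicates 1 and 2, and without replicate 4.

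The probes of Srebf1, Insig1, Insig2 and Mlxipl, the members with the largest changes, are shown first, because the probes of Mlxipl gave different readings and those of Insig2 alike ones. Each is 60 bases long and written 5′ to 3′, as deposited, with the probes of a gene numbered from the brightest. Capitals mark bases that fall in a run of 16 identical bases also found in the promoter of another gene in the RefSeq promoter table (GRCm38.p6). Positions are those of the array files, on mm9. Srebf1 was read at chr11:60013214-60013273 on the minus strand, Insig1 at chr5:28404246-28404305 on the plus strand, and the brightest Insig2 probe at chr1:123201085-123201144 on the minus strand. The second Insig2 probe, at chr1:123201071-123201130, shares 46 bases of the genome with the brightest and is no independent reading, whereas the third matches over chr1:123203517-123203752, a span of 236 bases that a 60-base probe covers only with a gap. For Mlxipl the brightest probe lies at chr5:135613705-135613764, the second spans chr5:135598483-135599113 and the third lies at chr5:135614195-135614252, all on the plus strand. Mlxipl probes 2 and 3 carry 29 bases in capitals each and share a run with promoters of 58 and 29 other genes, and the other 18 probes of the members do so with at most 2. Of all probes on the array, 0.823% shared a run with 25 or more genes and 71.6% shared none.
Srebf1: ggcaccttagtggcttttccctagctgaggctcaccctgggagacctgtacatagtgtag
Insig1: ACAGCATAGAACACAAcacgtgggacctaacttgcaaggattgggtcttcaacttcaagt
Insig2, probe 1: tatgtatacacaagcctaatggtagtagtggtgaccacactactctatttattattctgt
Insig2, probe 2: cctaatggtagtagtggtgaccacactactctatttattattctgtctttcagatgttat
Insig2, probe 3: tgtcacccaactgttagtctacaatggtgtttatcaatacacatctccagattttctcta
Mlxipl, probe 1: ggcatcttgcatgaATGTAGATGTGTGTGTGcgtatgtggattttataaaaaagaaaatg
Mlxipl, probe 2: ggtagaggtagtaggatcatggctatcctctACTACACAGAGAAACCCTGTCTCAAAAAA
Mlxipl, probe 3: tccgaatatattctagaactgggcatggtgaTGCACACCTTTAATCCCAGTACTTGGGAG

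The promoters of the 4 genes that changed most with fasting are printed to show which sequence features they hold. Each runs from 250 bases before to 50 bases after an annotated start, on the strand of the gene, and comes from RefSeq on GRCm38.p6. Where a gene has several annotated starts, 1 is shown. Both strands were searched for the E-box CACGTG, bound by Usf1 and, in pairs, by ChREBP with Mlx, for the sterol regulatory element TCACNCCAC, for CCAAT and GGGCGG, the letters of NF-Y and Sp1 sites, and for the LXR repeat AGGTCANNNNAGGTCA. Capitals mark the matches, none of which overlapped another. Srebf1 is on the minus strand at chr11:60210422-60210721, Insig1 on the plus strand at chr5:28071162-28071461, Insig2 on the minus strand at chr1:121332540-121332839, and Mlxipl on the plus strand at chr5:135089640-135089939.
Srebf1: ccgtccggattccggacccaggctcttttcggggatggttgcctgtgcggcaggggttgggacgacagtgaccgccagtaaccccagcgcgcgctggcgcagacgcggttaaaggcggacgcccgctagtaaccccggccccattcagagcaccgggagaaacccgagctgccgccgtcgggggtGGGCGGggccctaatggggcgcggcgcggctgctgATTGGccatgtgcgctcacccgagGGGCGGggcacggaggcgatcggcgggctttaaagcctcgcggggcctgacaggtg
Insig1: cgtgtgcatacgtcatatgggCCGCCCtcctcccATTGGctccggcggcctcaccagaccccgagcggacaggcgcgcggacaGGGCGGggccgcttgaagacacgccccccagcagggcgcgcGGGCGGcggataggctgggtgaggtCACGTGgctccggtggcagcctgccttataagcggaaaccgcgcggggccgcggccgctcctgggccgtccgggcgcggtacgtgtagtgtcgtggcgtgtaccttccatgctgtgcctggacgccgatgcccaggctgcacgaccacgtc
Insig2: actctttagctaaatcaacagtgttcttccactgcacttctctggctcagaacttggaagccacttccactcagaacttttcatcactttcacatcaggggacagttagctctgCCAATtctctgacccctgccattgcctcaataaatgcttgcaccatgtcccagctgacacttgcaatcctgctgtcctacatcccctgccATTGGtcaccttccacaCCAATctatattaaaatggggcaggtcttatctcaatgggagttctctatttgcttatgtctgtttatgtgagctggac
Mlxipl: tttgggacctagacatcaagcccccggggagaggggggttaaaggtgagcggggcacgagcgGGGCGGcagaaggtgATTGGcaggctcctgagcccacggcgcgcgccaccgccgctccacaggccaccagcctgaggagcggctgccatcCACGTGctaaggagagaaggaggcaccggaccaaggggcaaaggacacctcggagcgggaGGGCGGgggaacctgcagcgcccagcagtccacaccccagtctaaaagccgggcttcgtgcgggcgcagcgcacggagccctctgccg

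The E-box letters occur in the printed Insig1 and Mlxipl promoters, and in 5 of the 18 promoters of the members, which belong to Insig1, Mlx, Mlxipl and Scap. They occur in 7.15% of all 32851 promoters in the table. A second Mlxipl start, at chr5:135106641-135106940, holds the only match of a member to TCACNCCAC, a pattern present in 1.24% of all promoters. CCAAT was found in 7 of 18 and GGGCGG in 11 of 18, against 37.4% and 35.7% of all promoters. The LXR repeat was found in none of the 18 and in 0.0152% of all. Only this exact repeat was searched, and 5 of the 32851 promoters hold it. Its absence therefore cannot show whether looser forms of the repeat are present. The printed Insig2 promoter has a GC content of 46.0%, below the median of 52.7% over all promoters, but its other starts have 57.0% and 69.3%. That of the printed Srebf1 promoter is 70.7%, and its other starts have 54.3% and 62.7%. The GC content of these genes thus depends on the start shown. A match says only that the letters are present, and an absence only that they are not in this window.

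Fasting changed the same 4 members in both genotypes: Srebf1, Insig1 and Mlxipl fell and Insig2 rose. A gene was called when it changed by more than 1.5-fold up or down and limma's p, adjusted over all probes, was 0.05 or less. In LWT these 4 of 10 members stand beside 9.97% of all genes tested that were called, and in LKO beside 12.7%. By adjusted p alone, 5 members passed in LWT, where 40.7% of all genes did, the fifth being Mlx. In LKO 7 members passed, where 41.3% of all genes did, and these were the same 5 with Scap and Nr1h2 added. The 6 fed and 6 fasted arrays did not overlap for 5 members in LWT and 7 in LKO, against 21.6% and 22.1% of all genes. The median change over the 10 members was -0.07 in LWT and -0.10 in LKO.

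The genotypes differed less. In the fed state 2 of 10 members were called, Srebf1 and Insig2, both lower in LKO, where 3.84% of all genes were called. They were also the only 2 members that passed by adjusted p alone, as 16.2% of all genes did. In the fasted state 1 member was called, Srebf1, again lower in LKO, against 4.0% of all genes. By adjusted p alone Nr1h2 joined it, giving 2 members, against 20.0% of all genes. The fasting response differed between genotypes for Insig2, the 1 member called for the interaction, against 2.98% of all genes. By adjusted p alone the interaction passed for Insig2 and Nr1h2, against 7.52% of all genes. With fed arrays of both genotypes compared, 2 members had groups that did not overlap, and with fasted arrays 1, against 8.62% and 8.69% of all genes.

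**Figure D1:**
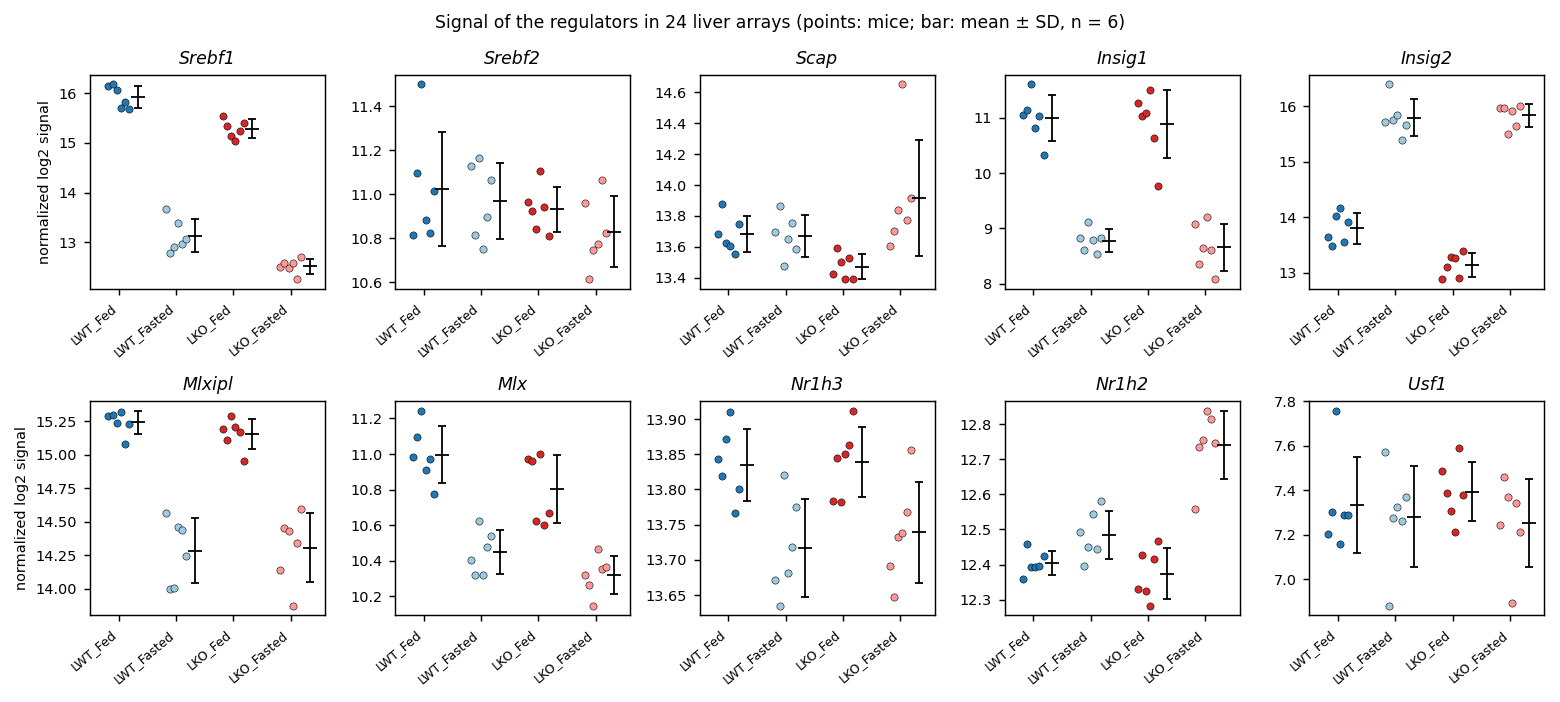
Normalized log2 signal (vertical axis) of the brightest probe of each of the 10 regulators, 1 panel per gene, with 1 point per mouse and the mean ± SD of the 6 mice of each group. Srebf1 falls from 15.94 to 13.13 with fasting in LWT and lies lower in LKO in both states, Insig2 rises in fasted livers, and the groups of Srebf2, Nr1h3 and Usf1 overlap.

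Srebf1, which encodes SREBP-1a and SREBP-1c, had the clearest order of groups. Whether its single probe reads both kinds of transcript was not determined here. In LWT_Fed the normalized log2 signal was 15.68 at the lowest, 15.95 at the median and 16.18 at the highest. It was 15.04, 15.29 and 15.55 in LKO_Fed. All 6 fed arrays of LWT were above all 6 of LKO. After fasting the lowest, median and highest were 12.78, 13.02 and 13.67 in LWT and 12.25, 12.53 and 12.69 in LKO. The 4 groups thus followed each other without overlap, from LWT_Fed through LKO_Fed and LWT_Fasted to LKO_Fasted.

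Fitted differences followed that order. Fasting lowered Srebf1 by 6.71-fold in LWT (log2 value -2.75, SE 0.126, adjusted p = 9.36e-13), and by 7.06-fold in LKO (log2 value -2.82, SE 0.138, adjusted p = 1.35e-12). Among the 21495 genes these changes ranked 21 and 19 from the largest decrease. LKO was lower than LWT by 1.54-fold in the fed state (log2 fold change -0.62, SE 0.128, adjusted p = 0.0022) and by 1.62-fold in the fasted state (-0.70, SE 0.136, adjusted p = 0.000997). The interaction was -0.07 (SE 0.187, adjusted p = 0.862), so no difference in the fasting response was detected. Both genotype differences lie near the 1.5-fold threshold: without LWT_Fasted replicate 4 the fasted one was -0.57 (adjusted p = 0.00361), and with the scanner's processed signal scaled to the 75th percentile the fed one was -0.57 (adjusted p = 0.00261), both below it. Within single slides, which hold 2 arrays of each group, the genotype difference was -0.57, -0.77 and -0.60 in the fed state and -0.36, -0.93 and -0.59 in the fasted state, none of them past the adjusted p. Fitted values here and below come from a model with array weights and a slide term, so they can depart from the difference of plain means, and where a difference is small its sign can differ.

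Srebf2, the gene of SREBP-2, passed in no comparison on its brightest probe. Its lowest, median and highest signals were 10.81, 10.95 and 11.50 in LWT_Fed and 10.75, 10.98 and 11.17 in LWT_Fasted. In LKO they were 10.81, 10.93 and 11.10 fed and 10.61, 10.80 and 11.07 fasted. The 4 groups overlapped. Fitted differences were 0.05 for fasting in LWT (SE 0.0924, adjusted p = 0.738), where the plain means were 10.97 fasted and 11.02 fed, -0.10 for fasting in LKO (SE 0.101, adjusted p = 0.446), 0.00 and -0.14 for genotype in the fed and fasted states, and -0.15 for the interaction. The second Srebf2 probe gave 0.29 for fasting in LWT (SE 0.114, adjusted p = 0.0465) and passed in no other comparison.

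Scap, the escort of SREBP, rose with fasting in LKO and not detectably in LWT. The lowest, median and highest signals were 13.55, 13.65 and 13.88 in LWT_Fed and 13.47, 13.67 and 13.87 in LWT_Fasted. They were 13.39, 13.46 and 13.59 in LKO_Fed and 13.60, 13.81 and 14.65 in LKO_Fasted. The fed and fasted LKO arrays did not overlap, and LKO_Fasted replicate 4 lay far above the other 5 of its group. Fasting changed Scap by 0.37 in LKO (SE 0.101, adjusted p = 0.00537), a 1.29-fold rise below the fold threshold, and by -0.03 in LWT (SE 0.093, adjusted p = 0.834). Without LKO_Fasted replicate 4 the LKO value was 0.30 (adjusted p = 0.00317). The genotype differences of -0.21 in fed and 0.19 in fasted livers did not pass, nor did the interaction of 0.40 (SE 0.138, adjusted p = 0.0819). Both depended on single arrays: without LKO_Fasted replicate 4 the fed genotype difference was -0.21 (adjusted p = 0.0463), and without LKO_Fasted replicate 1 the interaction was 0.46 (adjusted p = 0.047).

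The transcripts of the 2 retention proteins moved in opposite directions with fasting. Insig1, itself a target of SREBP, had lowest, median and highest signals of 10.32, 11.04 and 11.61 in LWT_Fed and 8.53, 8.80 and 9.11 in LWT_Fasted. In LKO they were 9.77, 11.06 and 11.50 fed and 8.08, 8.63 and 9.21 fasted. Fed and fasted arrays did not overlap in either genotype, whereas the genotypes overlapped throughout. Insig1 fell by 4.32-fold with fasting in LWT (log2 fold change -2.11, SE 0.219, adjusted p = 1.16e-07) and by 5.23-fold in LKO (-2.39, SE 0.239, adjusted p = 4.92e-08), ranking 51 and 40 from the largest decrease of all genes. The genotype difference was 0.06 fed (SE 0.222, adjusted p = 0.898), where the plain means run the other way, at 10.89 in LKO and 11.00 in LWT, and -0.22 fasted (SE 0.237, adjusted p = 0.575). Within the 3 slides the fed difference was -0.91, -0.14 and 0.72, so its direction was not the same on all slides. The interaction was -0.27 (SE 0.325, adjusted p = 0.666).

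Insig2 rose. The lowest, median and highest signals of its brightest probe were 13.49, 13.78 and 14.16 in LWT_Fed and 15.39, 15.73 and 16.39 in LWT_Fasted. In LKO they were 12.88, 13.18 and 13.39 fed and 15.50, 15.94 and 16.01 fasted. All 6 LKO_Fed arrays were below all 6 LWT_Fed arrays, and the 2 fasted groups overlapped. Fasting raised Insig2 by 3.82-fold in LWT (log2 fold change 1.93, SE 0.12, adjusted p = 6.75e-11) and by 6.42-fold in LKO (2.68, SE 0.13, adjusted p = 1.35e-12), which ranked 68 and 56 from the largest increase. LKO was 1.56-fold lower in the fed state (log2 fold change -0.64, SE 0.121, adjusted p = 0.0012), and differed by 0.11 in the fasted state (SE 0.129, adjusted p = 0.595). The interaction, the fasting response in LKO minus that in LWT, was 0.75 (SE 0.177, adjusted p = 0.0129). The other 2 probes gave interactions of 0.72 (adjusted p = 0.0321) and 0.74 (adjusted p = 0.0259) and were also called in both fasting comparisons and in the fed genotype comparison. The former of them, probe 2, shares 46 bases with the brightest and is no independent reading. Without LWT_Fed replicate 4 the fed genotype difference was -0.55 (adjusted p = 0.00451), below the 1.5-fold threshold. Within single slides it was -0.55, -0.67 and -0.76, and the interaction was 0.46, 0.52 and 1.14 with no adjusted p at or below 0.05.

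**Figure D2:**
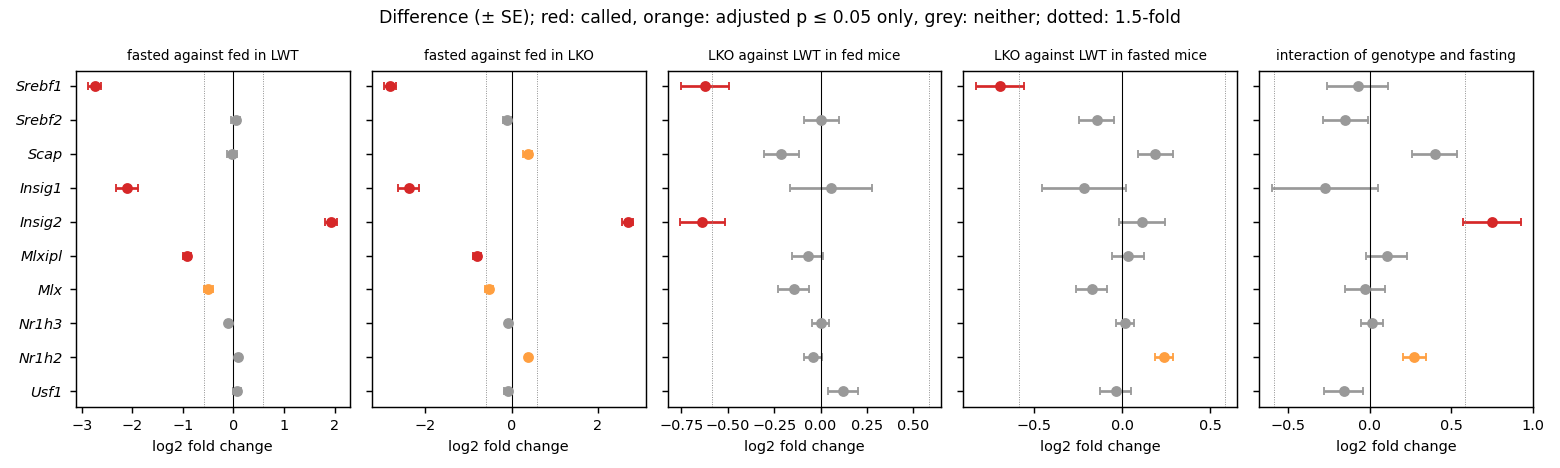
Log2 fold change (horizontal axis) with its SE for the 10 regulators, 1 panel per comparison, coloured by whether the gene was called, passed the adjusted p alone or neither, with dotted lines at a 1.5-fold change. Srebf1, Insig1 and Mlxipl lie to the left and Insig2 to the right in both fasting panels, and Insig2 is the only red point of the interaction, at 0.75.

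Mlxipl, the gene of ChREBP, fell with fasting on its brightest probe. Lowest, median and highest signals were 15.08, 15.26 and 15.32 in LWT_Fed and 14.00, 14.34 and 14.56 in LWT_Fasted. They were 14.95, 15.18 and 15.29 in LKO_Fed and 13.87, 14.38 and 14.60 in LKO_Fasted. Fed and fasted arrays were fully separate and the genotypes overlapped in each state. The fall was 1.89-fold in LWT (log2 fold change -0.92, SE 0.0849, adjusted p = 2.19e-08) and 1.76-fold in LKO (-0.81, SE 0.0925, adjusted p = 3.14e-07). The genotype differences were -0.07 fed (adjusted p = 0.638) and 0.04 fasted (adjusted p = 0.832), and the interaction was 0.11 (adjusted p = 0.667).

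The other Mlxipl probes, printed above, did not all follow. The second was called lower in both genotypes, by -1.02 in LWT (SE 0.1, adjusted p = 5.04e-08) and -0.62 in LKO (SE 0.109, adjusted p = 8.51e-05). With fasting the third changed by 0.05 in LWT and -0.19 in LKO (adjusted p of 0.671 and 0.128), and was higher in LKO_Fed than in LWT_Fed by 0.43 (SE 0.0891, adjusted p = 0.00225). In LKO_Fasted its replicates 1 and 2 read 10.83 and 10.77, above the 10.26 to 10.34 of the other 4. With the mean of all probes of a gene in place of the brightest, the Mlxipl fall in LKO was -0.54 and no longer reached 1.5-fold. The part of the bases that Mlxipl probes 2 and 3 share with other genes in these readings was not tested.

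Mlx, the partner that ChREBP needs to bind DNA, fell by less than the fold threshold. Its lowest, median and highest signals were 10.78, 10.98 and 11.24 in LWT_Fed and 10.32, 10.44 and 10.62 in LWT_Fasted. They were 10.60, 10.82 and 11.00 in LKO_Fed and 10.15, 10.34 and 10.47 in LKO_Fasted. No fasted array reached a fed one in either genotype. The change was -0.50 in LWT (SE 0.0822, adjusted p = 4.72e-05) and -0.52 in LKO (SE 0.0896, adjusted p = 6.38e-05), falls of 1.41-fold and 1.44-fold. Genotype differences were -0.14 fed and -0.17 fasted and did not pass (adjusted p = 0.263 and 0.189). The second Mlx probe had a mean log2 signal of 7.24 against 10.64 for the brightest. It gave -0.17 in LWT and -0.25 in LKO for fasting, neither of which passed.

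Of the LXR genes, Nr1h3, which encodes LXRα, passed in no comparison. Its lowest, median and highest signals were 13.77, 13.83 and 13.91 in LWT_Fed and 13.64, 13.70 and 13.82 in LWT_Fasted. They were 13.78, 13.85 and 13.91 in LKO_Fed and 13.65, 13.74 and 13.86 in LKO_Fasted. The groups overlapped, and fasting differences of -0.10 in LWT (SE 0.0471, adjusted p = 0.0879) and -0.09 in LKO (SE 0.0514, adjusted p = 0.18) did not pass. Genotype differences were 0.00 fed and 0.01 fasted. Its second probe passed in no comparison either.

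Nr1h2, the gene of LXRβ, rose in fasted LKO livers. The lowest, median and highest signals were 12.36, 12.40 and 12.46 in LWT_Fed and 12.40, 12.47 and 12.58 in LWT_Fasted. In LKO they were 12.28, 12.37 and 12.47 fed and 12.56, 12.75 and 12.84 fasted. The lowest LKO_Fasted array, replicate 1, was the only 1 of its group within the range of LWT_Fasted. Fasting raised Nr1h2 by 0.37 in LKO (SE 0.0516, adjusted p = 4.35e-06), a 1.30-fold change, and by 0.10 in LWT (SE 0.0474, adjusted p = 0.0991). LKO was higher by 0.24 in the fasted state (SE 0.0511, adjusted p = 0.00232), and the interaction was 0.27 (SE 0.0701, adjusted p = 0.0204). A second Nr1h2 probe had a mean log2 signal of 7.26 against 12.50 for the brightest. It gave 0.12 for fasting in LKO and 0.20 for the interaction, neither of which passed. The last probe was not well above background on any of the 24 arrays.

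Usf1, a factor that binds the E-box of lipogenic promoters, passed in no comparison on its brightest probe. Its lowest, median and highest signals were 7.16, 7.29 and 7.76 in LWT_Fed and 6.88, 7.30 and 7.57 in LWT_Fasted. They were 7.21, 7.38 and 7.59 in LKO_Fed and 6.90, 7.29 and 7.46 in LKO_Fasted. All groups overlapped, with differences from -0.16 for the interaction to 0.12 for genotype in the fed state. The second Usf1 probe gave 0.21 for fasting in LWT (SE 0.0739, adjusted p = 0.0274) and passed nowhere else.

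**Figure D3:**
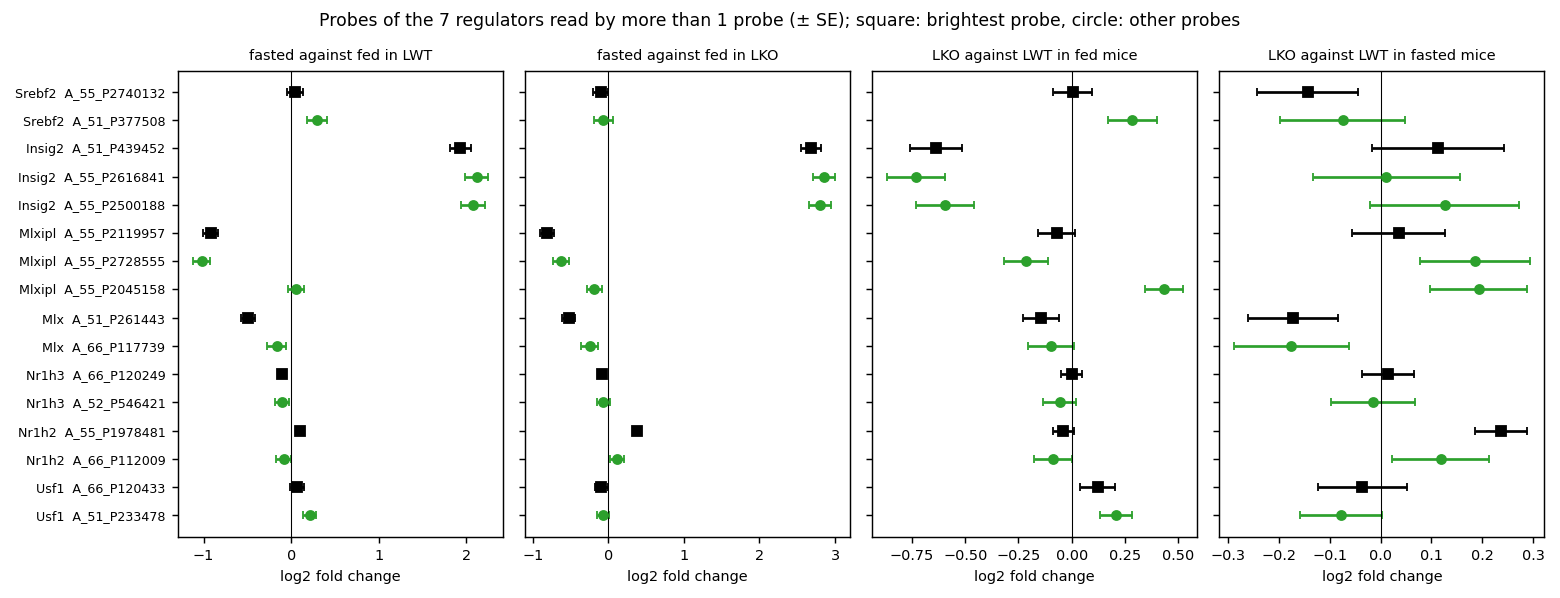
Log2 fold change (horizontal axis) with its SE for every tested probe of the 7 regulators read by more than 1 probe, 1 panel for each of the 4 comparisons between 2 groups, with a square for the brightest probe and circles for the others. The 3 Insig2 probes lie together at 1.93 to 2.12 for fasting in LWT, while the 3 Mlxipl probes run from -1.02 to 0.05.

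Genes that the factors act on were described by lists, as counts and medians, not all of which are given for every comparison. Over all genes tested, 9.97% were called for fasting in LWT, 12.7% for fasting in LKO, 3.84% and 4.0% for genotype in the fed and fasted states, and 2.98% for the interaction. SREBP-1 targets of fatty acid synthesis fell with fasting: 12 of 16 were called lower and 1 higher in LWT, with a median of -1.97, and 10 were called lower and 2 higher in LKO, with a median of -1.23. The median over all genes tested was -0.01 in LWT and -0.02 in LKO, and it lay between -0.02 and 0 in each of the 5 comparisons. In LWT Fasn, the fatty acid synthase, changed by -3.95 (SE 0.142, adjusted p = 2.73e-14) and Thrsp, a lipogenic nuclear protein, by -4.25 (SE 0.231, adjusted p = 1.07e-11). In LKO Thrsp changed by -6.29 and Fasn by -2.94. Pnpla3 also met the rule for naming in LWT, but it was well above background on 1 of 6 LWT_Fasted and 0 of 6 LKO_Fasted arrays, so no fold with fasting is given.

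In the fed state 10 of these 16 targets were called lower in LKO and none higher, with a median of -0.86. The lipase Pnpla3 changed by -3.02 (SE 0.309, adjusted p = 3.27e-06), the malic enzyme Me1 by -1.60 (SE 0.158, adjusted p = 2.02e-06) and the elongase Elovl6 by -1.20 (SE 0.195, adjusted p = 0.000357). In the fasted state 4 were called lower and 2 higher, with a median of -0.08. Among them Thrsp differed by -3.11 (LKO minus LWT, log2), whereas Elovl6 was higher by 1.25. For the interaction 8 were called with a positive and 2 with a negative value. Pnpla3, at background after fasting, is among the 8 and is given no value. Of the others named, Elovl6 had 2.45 (SE 0.284, adjusted p = 3.98e-05) and Thrsp -2.05 (SE 0.342, adjusted p = 0.000986). Srebf1 itself had an interaction of -0.07.

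SREBP-2 targets of cholesterol synthesis and uptake also fell with fasting although Srebf2 did not pass. Of 22 tested, 18 were called lower and 0 higher in LWT, with a median of -1.43, and 15 lower and 1 higher in LKO, with a median of -1.19. Mvd, which makes isopentenyl diphosphate, changed by -3.54 in LWT (SE 0.252, adjusted p = 4.49e-10) and -2.92 in LKO. The squalene epoxidase Sqle changed by -2.76 in LWT and Fdps, which makes farnesyl diphosphate, by -1.92 in LKO. Hsd17b7, a sterol reductase, was the 1 called higher in LKO. Genotype called none of the 22 in the fed state at a median of -0.03, and 4 higher in fasted LKO at a median of 0.28. Of those, Idi1 was higher by 1.06 (SE 0.252, adjusted p = 0.00485), Hsd17b7 by 0.98 (SE 0.169, adjusted p = 0.000322) and the demethylase Cyp51 by 0.93 (SE 0.231, adjusted p = 0.00655).

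ChREBP targets of sugar metabolism moved both ways. With fasting 3 of 12 were called higher and 4 lower in LWT, and 4 higher and 4 lower in LKO, with medians of -0.16 and 0.20. Pklr, the liver pyruvate kinase, changed by -2.33 in LWT (SE 0.183, adjusted p = 2.07e-09) and -2.51 in LKO. Txnip, a thioredoxin inhibitor, changed by 1.87 and 2.06, and the hormone gene Fgf21 by 3.16 and 5.21. Fgf21 is known also as a target of PPARα, a factor of the fasted liver. In the fed state 4 were called lower in LKO and none higher, with a median of -0.39, among them Fgf21 at -1.18, Pklr at -1.03 and the ketohexokinase Khk at -0.70. In the fasted state Pklr differed by -1.21 and Khk by -0.92 (LKO minus LWT, log2), and Fgf21 was higher by 0.87 (SE 0.274, adjusted p = 0.0289). Only Fgf21 was called for the interaction, at 2.05 (SE 0.376, adjusted p = 0.00216). Mlxipl itself did not pass in either genotype comparison on its brightest probe.

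LXR targets of sterol and lipid transport moved both ways with fasting in LWT. Of 13, 2 were called higher and 2 lower there, beside 9.97% of all genes, and 0 higher and 1 lower in LKO, beside 12.7%. The medians were -0.03 in LWT and 0.01 in LKO. Abcg8, which with Abcg5 exports sterols into bile, changed by 1.18 in LWT (SE 0.114, adjusted p = 4.16e-08). Cyp7a1, the rate-limiting enzyme of bile acid synthesis, changed by -1.41 in LWT and -2.10 in LKO. Pltp, the phospholipid transfer protein, was called lower with fasting in LWT, and in the fed state it differed by -1.65 between LKO and LWT (SE 0.288, adjusted p = 0.00062). In the fasted state Abcg5 differed by -0.85 and Lpl, the lipoprotein lipase, by 1.22. The interaction was called for Abcg5 at -0.97 (SE 0.211, adjusted p = 0.00748) and Abcg8 at -0.82 (SE 0.169, adjusted p = 0.00513).

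**Figure D4:**
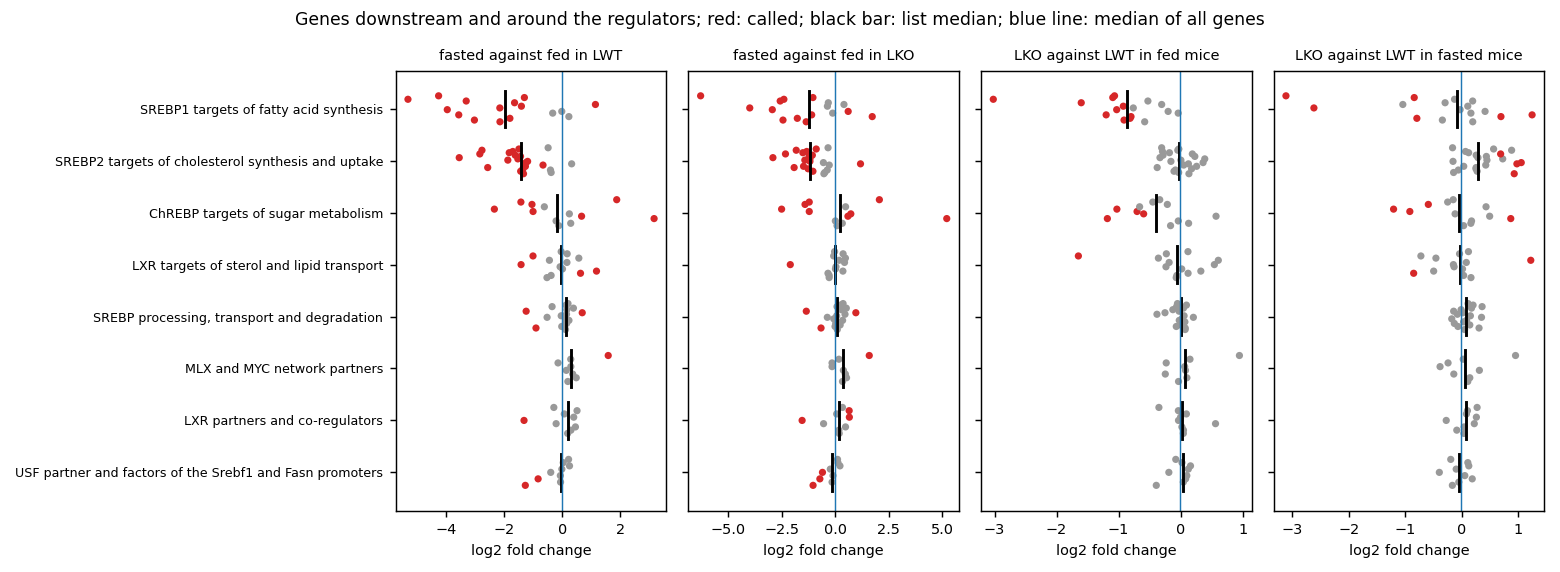
Log2 fold change (horizontal axis) of every tested gene of the 8 lists of targets and partners, 1 panel for each of the 4 comparisons between 2 groups, with called genes in red, a black bar at the median of each list and a blue line at the median of all genes. The black bars of SREBP-1 and SREBP-2 targets lie at -1.97 and -1.43 for fasting in LWT, and that of SREBP-1 targets lies at -0.86 for LKO against LWT in fed mice.

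Some partners of the factors changed with fasting. Among 18 genes of SREBP cleavage, transport and degradation, 1 was called higher and 2 lower with fasting in each genotype, beside 9.97% of all genes in LWT and 12.7% in LKO. The COPII coat genes Sec23b and Sec23a, whose products carry cargo out of the endoplasmic reticulum, moved apart, Sec23b by -1.24 in LWT (SE 0.0998, adjusted p = 2.91e-09) and -1.36 in LKO, Sec23a by 0.69 (SE 0.0715, adjusted p = 1.16e-07) and 0.96. Erlin1, of the endoplasmic reticulum membrane, changed by -0.90 and -0.67. No gene of this list was called for genotype or the interaction. By adjusted p alone 2 of the 18 passed for genotype in fed livers, beside 16.2% of all genes, and 3 in fasted livers, beside 20.0%. For the interaction 2 passed, beside 7.52%.

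The counts of the next 3 lists stand beside 9.97% of all genes called with fasting in LWT and 12.7% in LKO. Of 8 tested genes of the MLX and MYC network, Myc was the only 1 called, higher with fasting by 1.58 in LWT (SE 0.414, adjusted p = 0.00389) and 1.59 in LKO. Among 9 partners and co-regulators of LXR, 1 was called in LWT and 3 in LKO: the orphan receptor Nr0b2 was called lower with fasting in both genotypes, by -1.31 and -1.55, and the retinoid receptor Rxrb (0.65) and the co-regulator Nrip1 (0.66) higher in LKO. Of 9 tested factors of the Srebf1 and Fasn promoters, 2 were called in LWT and 3 in LKO, all lower: the NF-Y subunit Nfyb changed by -0.83 and -0.72 and the repressor Bhlhe40 by -1.27 and -1.04 with fasting. Prkdc, a kinase that acts on Usf1, changed by -0.60 in LKO. None of these 3 lists had a gene called for genotype or the interaction. Of all genes, 3.84% and 4.0% were called for genotype in the fed and fasted states and 2.98% for the interaction.

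Markers of other cell types were read beside these results. Over the 9 marker lists, 54 genes passed the filter, of which 0 were called higher and 4 lower with fasting in LWT, 1 higher and 5 lower in LKO, 1 higher and 4 lower for genotype in the fed state, and 2 higher and 3 lower in the fasted state. None of the 8 hepatocyte markers was called in any comparison. Cholangiocyte markers, 6 of 6 passing, had a summed log2 signal of 11.07 to 11.77 in LWT_Fed, 10.80 to 11.14 in LWT_Fasted, 9.74 to 10.90 in LKO_Fed and 9.13 to 10.27 in LKO_Fasted. It was thus highest in LWT_Fed and lowest in LKO_Fasted, with overlap between neighbouring groups in that order. The summed Kupffer cell signal spread most in LKO_Fasted, from 14.37 to 16.46. The part of these cell types in the changes of the regulators was not tested. Of 6 adipocyte markers 5 passed, with Adipoq not well above background, and their summed signal ran from 10.32 to 12.79 in LWT_Fasted and from 10.36 to 11.83 over the other groups. Of the cholangiocyte markers 1 was called lower with fasting in LWT, 2 in LKO and 1 in each genotype comparison, and of 7 stellate cell markers 2 were called lower with fasting in each genotype. Of 4 erythroid markers that passed, 1 was called lower in LKO in each genotype comparison, and of 7 sinusoidal endothelium markers 1 in the fed one. Of the 5 adipocyte markers 0 were called for fasting in LWT and 1 in LKO, 1 and 2 for genotype in the fed and fasted states, and 1 for the interaction. Of 7 pancreas markers 4 passed, with Cpa1, Prss2 and Pnlip not well above background, and 1 was called in each comparison but the interaction.

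Genes whose 4 group means ran most like those of a called member were found by the root mean square difference of the means, each gene centred on its own average, over the 21495 genes tested. Closest to Srebf1 were Aacs at 0.154 log2 units and Acly at 0.200, then Gask1a at 0.253, which was well above background on only 2 LWT_Fasted and no LKO_Fasted arrays. Aacs makes acetoacetyl-CoA and Acly the cytosolic acetyl-CoA used for lipid synthesis. Closest to Insig1 were Ptk6 (0.0433), Keg1 (0.0843) and Ihh (0.104), and to Insig2 the transcripts Gm23952 (0.105) and ENSMUST00000124404 (0.159) with Tor3a (0.163). For Mlxipl, Cxcl10 (0.0212) and Gm9530 (0.024) were among the closest, and Gm9530 was well above background on only 4 of 6 arrays in each fasted group. Only 4 group means enter this measure.

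Within the fed groups, mice with more Insig1 signal had more signal of the SREBP-2 targets, by Pearson's r and not, after adjustment, by Spearman's rho. Across the 6 LWT_Fed arrays its signal and the mean of the 22 targets had a Pearson r of 0.937 (exact permutation p = 0.0111, adjusted over 8 relations 0.0444) and a Spearman rho of 0.943 (exact permutation p = 0.0167, adjusted 0.133). Across the 6 LKO_Fed arrays r was 0.967 (exact permutation p = 0.00694, adjusted 0.0444) and rho 0.829 (exact permutation p = 0.0583, adjusted 0.233). Both lists of values share an array and its normalization. Without the 2 arrays farthest from the median of Insig1, r was 0.792 in LWT_Fed and 0.895 in LKO_Fed over the remaining 4.

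In the fasted groups the same relation was 0.492 in LWT and 0.525 in LKO (exact permutation p = 0.321 and 0.279), and without the 2 farthest arrays it was -0.41 and 0.911. Srebf1 had no relation past the test with its 16 targets, with r of 0.695 in LWT_Fed, 0.569 in LWT_Fasted, -0.399 in LKO_Fed and -0.37 in LKO_Fasted (exact permutation p of 0.103, 0.239, 0.422 and 0.468). Without the 2 farthest arrays these were 0.294, 0.902, -0.503 and -0.564, so with so few arrays r moved widely. Whether the relation differs between feeding states was not tested. Within slides, a check chosen after seeing the data, the 2 arrays of a group differed in the same direction for Insig1 and its targets on 3 of 3 slides in each fed group and 2 of 3 in each fasted group. For Srebf1 this held on 2 of 3 slides in both LWT groups, 1 in LKO_Fed and 0 in LKO_Fasted. With values centred on their slide, r for Insig1 was 0.899 in LWT_Fed, 0.633 in LWT_Fasted, 0.984 in LKO_Fed and 0.87 in LKO_Fasted, and for Srebf1 0.982, 0.674, 0.883 and -0.642 in the same order, each with 3 pairs of arrays and no test.

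**Figure D5:**
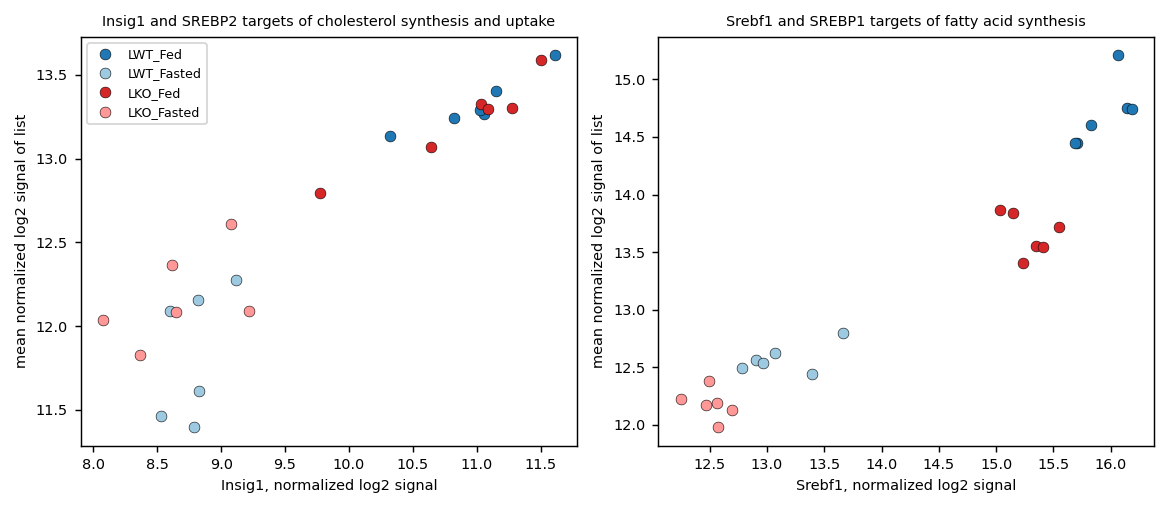
Mean normalized log2 signal of the target list (vertical axis) against the signal of the regulator (horizontal axis), with 1 point per mouse, for Insig1 with 22 SREBP-2 targets and Srebf1 with 16 SREBP-1 targets. Fed mice form a rising line for Insig1 (r of 0.937 in LWT_Fed and 0.967 in LKO_Fed), while for Srebf1 the 4 groups stand apart along the horizontal axis.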

How the data were processed

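Liver RNA was labelled with Cy3 and hybridised by the authors to Agilent SurePrint G3 mouse arrays, and Feature Extraction 10.10.1.1 turned the scans into spot values. Used here, per the file headers, is the median pixel intensity of each spot, neither background-subtracted nor scaled between arrays, with its mean and local background intensity and a processed signal as alternatives. The deposited series matrix holds log2 values that the authors filtered, corrected for washing bath and quantile normalized, and it served as an alternative. Probe positions refer to mm9.

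Spots flagged as uneven or outlying, 61 to 133 per array, were left out. This left 90 probe values missing, counted over all probes before the filter. Probes well above background on at least 5 of 6 arrays of at least 1 group were kept, which left 32197 probes of 21495 genes. Median intensities were log2 transformed and quantile normalized. A model of group means, slide (3 slides, in place of the washing bath, which the labels do not give) and array weights was fitted with limma 3.58.1 in R 4.3.3 to all 24 arrays. Tests were two-sided, with Benjamini and Hochberg's adjustment over all probes. The code was tested on simulated data. No 2 arrays of a group held the same values. Each array is labelled as 1 mouse, and their number limits the precision. Signal level was used to choose the brightest probe of a gene and to describe the second probes of Mlx and Nr1h2. Otherwise levels of different probes were not compared.

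The members and lists were chosen with earlier results of these data known. Named genes are the 10 members, up to 3 called genes of each list and comparison with the largest log2 fold change, and the 3 genes closest in pattern to each called member. Some genes that meet this rule are not reported here. Lists of targets and partners numbered 8 and lists of markers 9, and no set test was made. Alternatives were other signals and background corrections, the deposited matrix, other normalizations, filters, probe rules and thresholds, no slide term, single slides, no array weights, a replicate block, and leaving out arrays. Promoters came from RefSeq (GRCm38.p6), of which no coordinate was converted.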

Additional observations from a re-analysis of the deposited data

Results flagged for a closer look

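Of the 40 groups of 6 arrays tested over the 10 members, 3 held an array far from the other 5, beyond Dixon's critical value for 6, and chance alone gives about 1 in 20 groups. Scap read 14.65 in LKO_Fasted replicate 4, the highest of its group, with a gap of 0.702 of the range. Nr1h2 read 12.56 in LKO_Fasted replicate 1, the lowest of its group, with a gap of 0.635 of the range. Without that array the fasting change of Nr1h2 in LKO was 0.41 in place of 0.37. Usf1 read 7.76 in LWT_Fed replicate 3, the highest of its group, with a gap of 0.764 of the range, and Usf1 passed in no comparison with or without it.

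The response to fasting differed between genotypes for 2 members, by the interaction test in limma. It was 0.75 for Insig2 (adjusted p = 0.0129) and 0.27 for Nr1h2 (adjusted p = 0.0204). For Insig2 the genotype difference passed the adjusted p in the fed state, and for Nr1h2 in the fasted state, where the groups overlapped by 1 array.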

How the results depend on the processing

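Of the 12 called differences, 8 kept their call under every setting run for them other than single slides (37, of which a fit of the compared groups alone was not run for the interaction), and none changed sign under any setting. With no minimum fold, 7 members passed for fasting in LKO, 2 for genotype in fasted mice and 2 for the interaction. On slide 1 alone, with 2 arrays per group, 2 members were called for fasting in LKO, and 0 for genotype in fed mice, genotype in fasted mice and the interaction. On slide 2 alone the counts were 1 for genotype in fed mice, 0 in fasted mice and 0 for the interaction, and on slide 3 alone 0, 0 and 0. With the processed signal scaled to the 75th percentile, 1 member was called for genotype in fed mice, as Srebf1 changed by -0.57 there, below 1.5-fold. Leaving out each array in turn gave 1 to 2 members for genotype in fed mice and 0 to 1 in fasted mice, the lower counts arising without LWT_Fed replicate 4 (Insig2) and LWT_Fasted replicate 4 (Srebf1). The counts for both fasting comparisons and the interaction stayed at 4, 4 and 1. The remaining lost call was Mlxipl for fasting in LKO, at -0.54 with the mean of all probes. Same-numbered arrays did not deviate together (36 pairs, r from -0.282 to 0.213, 8 above 0.1). The median r was -0.0154 for the same number and 0.00671 for other numbers. No pairing of the mice by number was seen, which does not exclude one. With a replicate block the counts were 4, 4, 2, 1 and 1, and the Insig2 interaction was 0.83. Without LKO_Fasted replicates 1 and 2 it was 0.73 (adjusted p = 0.0218). Single slides leave few arrays, and signal over background gives no fold for Pnpla3 after fasting.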
